A study of Homo sapiens with 16 samples.

Results

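CAL62, a cell line from an anaplastic thyroid carcinoma with a RAS mutation, was sequenced as numbered replicates 2 and 1 of 4 treatments, and the results below compare the 4 replicate 2 libraries with the 4 replicate 1 libraries within each treatment. The 8 libraries were chosen by cell line and by the replicate number in their titles, out of 16 libraries in the series. No measured value was used to choose them. The table held 60715 genes, and 17492 of them had at least 10 normalized counts in at least 2 CAL62 libraries and were tested.

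The series examined ERK signaling in anaplastic thyroid carcinoma, one of the most aggressive human cancers. CAL62 cells and 8505c cells, a line with a BRAF mutation, were kept for 24 h in medium with 10% fetal bovine serum and either DEL-22379 at 1 or at 10 µM, U0126 at 10 µM or the vehicle DMSO, with 2 replicates per group. DEL-22379 is described as an inhibitor of ERK dimerization, and U0126 inhibits MEK, the kinase that activates ERK. Doses are given in µM after the study's methods, whereas the sample labels write mM. Each replicate number of CAL62 therefore held 1 library with DMSO, 1 with 1 µM DEL-22379, 1 with 10 µM DEL-22379 and 1 with U0126, all from the same line and all after 24 h in the same medium. The methods call the replicates biological, but neither they nor the labels say what a number shared by 4 treatments marks. A culture, a passage, a day, an RNA extraction and a library batch behind the number cannot be told apart, and the 4 libraries of a number may come from 1 culture. The p-values below therefore measure how steady a difference was across the 4 treatments.

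Cells in culture differ in how fast they divide, and their RNA follows. Genes for DNA replication are switched on by E2F factors before S phase, and genes for mitosis peak later, in G2 and M, under MYB, FOXM1 and NF-Y. Replication-dependent histone genes are expressed in S phase, and their mRNAs normally end in a stem loop instead of a poly(A) tail, so a library selected for poly(A) RNA captures few of them. Cells that leave the cycle raise CDK inhibitors and other growth arrest genes. The integrated stress response acts through the factor ATF4, and cholesterol synthesis genes follow the factor SREBP2. In bulk libraries such as these, fewer cells of a state and less RNA per cell in that state cannot be told apart.

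The replicate 2 libraries held 33916302 to 38715051 recovered reads and the replicate 1 libraries 25683055 to 36739600, where reads were recovered from the steps between the normalized values. The ratio of replicate 2 to replicate 1 was 1.32 with DMSO, 1.29 with 1 µM DEL-22379, 1.28 with 10 µM DEL-22379 and 0.957 with U0126. Genes above 0 numbered 23546 to 24929 in replicate 2 and 20853 to 22940 in replicate 1. The epithelial keratins KRT8 and KRT18 and the thyroid factor PAX8 were abundant in all 8 libraries (PAX8 at 9098 to 12449 normalized counts in replicate 2 and 7285 to 11419 in replicate 1). Other members of the same lists were low in all 8 libraries. The epithelial markers CDH1 and ESRP1 were at 7.22 or less and 29.5 or less. The thyroid factors FOXE1 and NKX2-1 were at 55.7 or less and 1.11 or less. The hormone genes of differentiated thyroid were low or absent, with TG at 88.8 or less and TSHR, DIO1 and IYD at 0 throughout. Of 15 immune markers 4 passed the filter, CD3E, MS4A1 and NKG7 were at 0 in all libraries, and PTPRC was above 0 in 1 library, at 3.57. CD14, a coreceptor of myeloid cells, was called higher in replicate 2 (log2 difference 1.48, adjusted p = 0.0347 with limma), at 42.0 to 211 normalized counts in replicate 2 and 27.2 to 108 in replicate 1. CD68, a lysosomal protein used as a macrophage marker, lay at 649 to 1350.1 in replicate 2 and 564 to 1154 in replicate 1, and the integrin ITGAM reached 170.3 in replicate 2 and 52.3 in replicate 1. The 15 summed to 0.00315 to 0.00504% of normalized counts in replicate 2 and 0.00211 to 0.00358% in replicate 1, higher in 4 of 4 pairs. Of 10 endothelial markers 4 passed the filter, and the receptor TIE1 was called higher (1.96, adjusted p = 0.021), at 25.8 to 41.3 in replicate 2 and 3.62 to 11.5 in replicate 1. In order of DMSO, 1 µM DEL-22379, 10 µM DEL-22379 and U0126, the 10 fibroblast markers summed to 0.0439, 0.0402, 0.00569 and 0.131% in replicate 2, against 0.0162, 0.0151, 0.0111 and 0.198% in replicate 1. They were higher in replicate 2 with DMSO and 1 µM DEL-22379 and lower with 10 µM DEL-22379 and U0126. The collagen gene COL1A1 made up most of this sum, at 12922 of 13778 normalized counts in replicate 2 with DMSO. Over the 8 libraries DCN was at 5.16 or less, LUM at 43.5 or less and POSTN at 0. The 12 epithelial markers summed to 0.116 to 0.386% in replicate 2 and 0.097 to 0.396% in replicate 1. Of the epithelial markers CLDN4 and KRT19 were called higher in replicate 2. The part of these markers in the results below was not tested. Transcripts characteristic of 8505c cells, chosen for high values in 8505c and low values in CAL62 libraries, were summed as well. They reached 0.245% or less of their level in 8505c in every CAL62 library. Because the choice used the CAL62 values, low sums follow largely from it. The presence of 8505c material in the CAL62 libraries was therefore not tested.

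Replicate 2 differed from replicate 1 in 1160 of the 17492 genes (6.63%; limma with treatment in the model, adjusted p under 0.05), of which 537 were higher (3.07% of genes tested) and 623 were lower (3.56%). All 1160 had the same direction in all 4 pairs, a pattern that 3080 genes (17.6%) showed upward and 3179 genes (18.2%) downward among all tested. The thresholds of the study for drug effects were an adjusted p under 0.01 and a shrunken log fold change over 1.5 in size. Applied here to the unshrunken log2 difference of limma, they left 4 genes higher (0.0229%) and none lower. The 4 genes were CLDN4, a tight junction claudin, IER5L, KCNG1, a potassium channel subunit, and INHBE, an activin subunit. Of these, IER5L and KCNG1 are named after their values were seen. Treatment accounted for 72.9% of the sum of squares of CAL62 log2 values, the replicate number for 13.5% and the remainder for 13.6%. Scaling the libraries to equal totals instead of the deposited scaling gave 475 genes higher and 257 lower, so that higher genes made up 64.9% of the calls instead of 46.3%.

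The calls depended on single pairs. Without the DMSO pair 26 of the 1160 genes remained called and without the 1 µM DEL-22379 pair 71, against 937 without the 10 µM DEL-22379 pair and 519 without the U0126 pair. The paired differences with DMSO and with 1 µM DEL-22379 were the widest (SD of the log2 difference 0.864 and 0.813, against 0.744 with 10 µM DEL-22379 and 0.596 with U0126), and they correlated with each other at 0.55 across genes, against 0.25 to 0.29 for the other pairs of treatments. Genes are not independent replicates, so these correlations are descriptions. The direction also followed level. Among 4475 genes with a mean under 50 normalized counts, 108 were higher and 6 lower, with a median log2 difference of 0.32. Among 7341 genes between 500 and 5000, 212 were higher and 447 lower, with a median of -0.05. The median of low genes was 0.39 with DMSO, 0.39 with 1 µM DEL-22379, 0.27 with 10 µM DEL-22379 and 0.11 with U0126. The ratios of reads in replicate 2 to replicate 1 were 1.32, 1.29, 1.28 and 0.957 in that order. The part of depth in these medians and in the list results below was not tested.

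**Figure D1:**
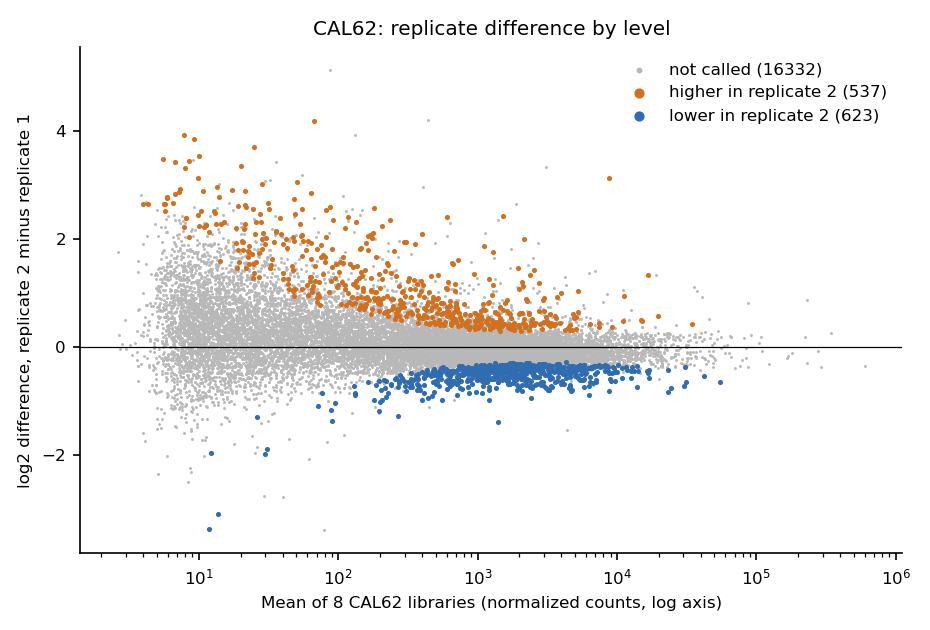
Log2 difference of replicate 2 minus replicate 1 (y axis) against the mean of the 8 CAL62 libraries in normalized counts (x axis, log scale), 1 point per gene, for 17492 genes. Orange points mark the 537 genes called higher in replicate 2 and blue points the 623 called lower; most of the low genes that were called lie above 0.

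Genes of G2 and mitosis formed the group with the most calls. Of 50 tested, 38 were lower in replicate 2 (76%, against 3.56% of all genes) and none higher, with a median log2 difference of -0.60, against 0.02 over all genes. The pair medians were -0.76 with DMSO, -0.74 with 1 µM DEL-22379, -0.53 with 10 µM DEL-22379 and -0.41 with U0126, so each pair differed in the same direction. Together the 50 genes took 0.603, 0.628, 0.396 and 0.18% of normalized counts in replicate 2 under DMSO, 1 µM DEL-22379, 10 µM DEL-22379 and U0126, against 0.936, 0.969, 0.58 and 0.222% in replicate 1. The share was lower in 4 of 4 pairs, and no p is given because the list was chosen with earlier results known. Values per library are given below in that order of treatments.

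DLGAP5, a spindle microtubule protein (ENSG00000126787.13, chr14:55148112-55191678, minus strand), had 2164, 2122, 1426 and 694 normalized counts in replicate 2, against 4438, 4688, 2448 and 1215 in replicate 1. Each replicate 2 library was below its partner, while the replicate 1 library with U0126 lay within the replicate 2 range, so the sets overlapped (log2 difference -0.94 ± 0.09 (SE), adjusted p = 0.00756). ASPM, which organizes spindle poles (ENSG00000066279.18, chr1:197084128-197146694, minus strand), had 5765, 6477, 3585 and 1336 normalized counts in replicate 2, against 12152, 12142, 6924 and 2114 in replicate 1 (log2 difference -0.90 ± 0.09 (SE), adjusted p = 0.00756). BUB1, a kinase of the spindle checkpoint (ENSG00000169679.15, chr2:110637698-110678114, minus strand), had 3181, 3235, 2287 and 761 normalized counts in replicate 2, against 5914, 6069, 3493 and 1322 in replicate 1 (log2 difference -0.80 ± 0.08 (SE), adjusted p = 0.00756). These genes were lower in every pair as well, and again the sets overlapped through the replicate 1 library with U0126. CCNB2, a B-type cyclin that drives entry into mitosis (ENSG00000157456.8, chr15:59105078-59125045, plus strand), had 1977, 1922, 1140.3 and 877 normalized counts in replicate 2, against 3612, 3681, 2066 and 1306 in replicate 1 (log2 difference -0.81 ± 0.08 (SE), adjusted p = 0.00756). The proliferation marker MKI67 (-0.83), the cyclin CCNB1 (-0.75), the mitotic kinases AURKB (-0.65) and PLK1 (-0.73) and the topoisomerase TOP2A (-0.63) were called lower too. Without the DMSO pair 4 of the 50 genes were called and without the 1 µM DEL-22379 pair 8, with a median of -0.55 in both cases.

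The promoters of the 4 mitotic genes with the smallest p are shown because the list shares promoter letters that the choice of its members did not use. Each sequence holds the 200 bases before the RefSeq start (GRCh38.p14), with capitals for TTTGAA or its reverse TTCAAA, the core of the cell cycle genes homology region, and for CCAAT or its reverse ATTGG, the box bound by NF-Y. They lie at DLGAP5 at chr14:55191586-55191785 on the minus strand, ASPM at chr1:197146670-197146869 on the minus strand, BUB1 at chr2:110678064-110678263 on the minus strand and CCNB2 at chr15:59104946-59105145 on the plus strand.
DLGAP5: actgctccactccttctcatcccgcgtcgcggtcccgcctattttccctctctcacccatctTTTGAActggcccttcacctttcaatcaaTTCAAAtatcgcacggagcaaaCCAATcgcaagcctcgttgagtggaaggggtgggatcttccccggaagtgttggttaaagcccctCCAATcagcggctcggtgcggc
ASPM: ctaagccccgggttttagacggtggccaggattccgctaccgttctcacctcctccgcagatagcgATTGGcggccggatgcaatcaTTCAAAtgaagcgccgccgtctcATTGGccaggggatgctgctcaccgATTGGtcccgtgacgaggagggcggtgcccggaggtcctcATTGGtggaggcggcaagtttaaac
BUB1: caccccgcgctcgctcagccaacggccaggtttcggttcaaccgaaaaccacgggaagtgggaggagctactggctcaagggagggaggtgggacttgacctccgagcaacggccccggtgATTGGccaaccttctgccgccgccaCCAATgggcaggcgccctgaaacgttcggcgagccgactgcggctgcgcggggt
CCNB2: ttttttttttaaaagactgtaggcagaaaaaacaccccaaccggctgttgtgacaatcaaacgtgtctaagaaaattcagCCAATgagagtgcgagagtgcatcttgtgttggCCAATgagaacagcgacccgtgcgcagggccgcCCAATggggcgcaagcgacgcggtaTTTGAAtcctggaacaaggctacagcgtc

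TTTGAA on either strand was in 21 of the 43 promoters found for the list (48.8%), against 10.5% of 27305 promoters and 6.09% of those of protein-coding genes tested. It was in 18 of 34 called members and 3 of 9 members not called. CCAAT on either strand was in 30 of 43 (69.8%), against 28.9% of all promoters. Of the 4 shown, BUB1 held CCAAT letters without TTTGAA and the other 3 held both. The windows overlap the GENCODE gene bounds given above, since RefSeq and GENCODE starts differ. A match in the window is a description, not a binding site.

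Genes of G1/S and DNA replication were lower to a smaller extent, with 10 of 50 called lower (20%), none higher and a median of -0.29. The pair medians were -0.46 with DMSO, -0.48 with 1 µM DEL-22379, -0.30 with 10 µM DEL-22379 and -0.05 with U0126. UHRF1, which maintains DNA methylation behind the replication fork (ENSG00000276043.5, chr19:4903080-4962154, plus strand), had 5378, 4997, 2067 and 1234 normalized counts in replicate 2, against 8122, 7589.7, 3161 and 1741 in replicate 1 (log2 difference -0.58 ± 0.07 (SE), adjusted p = 0.00954). All 4 pairs differed in the same direction, and the sets overlapped. MCM5, a subunit of the replicative helicase, had 4003, 3802, 1852 and 951 normalized counts in replicate 2, against 6408, 6210.5, 2285 and 1393 in replicate 1 (log2 difference -0.56 ± 0.09 (SE), adjusted p = 0.0159). The DNA ligase LIG1 (-0.55), the clamp loader subunit RFC3 (-0.63) and the ribonucleotide reductase subunit RRM1 (-0.42) were called lower as well. E2F1 and the licensing factor CDT1 were not called over the 4 pairs, and both were higher in replicate 2 with 10 µM DEL-22379 and with U0126 and lower with DMSO and 1 µM DEL-22379. E2F1 had 3445, 3276, 4817 and 563 normalized counts in replicate 2, against 5215, 4822, 3540.4 and 509 in replicate 1. Without the DMSO pair, or without the 1 µM DEL-22379 pair, 0 of the 50 were called.

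Of 10 replacement histones, which are made outside S phase and carry poly(A) tails, 3 were lower (30%, against 3.56% of all genes) and none higher. CENPA, the histone H3 variant of centromeres and also a member of the mitotic list, had 889, 837, 581 and 200.1 normalized counts in replicate 2, against 1621, 1629, 786 and 334 in replicate 1 (log2 difference -0.75 ± 0.11 (SE), adjusted p = 0.0137). H2AZ2 (-0.41) and MACROH2A1 (-0.35) were the others. Of 23 genes for histone mRNA processing and supply, 0 were called by limma (8 at an unadjusted p under 0.05), against 1 by edgeR and 4 by DESeq2, and their median was -0.15. Of 32 ribosome biogenesis genes 6 were lower (18.8%) and none higher (median -0.24), among them RRS1 (-0.50), a factor of large subunit assembly, and DKC1 (-0.40), the pseudouridine synthase of H/ACA particles. Neither replacement histones nor ribosome biogenesis genes were called without the DMSO pair or without the 1 µM DEL-22379 pair. With equal totals 1 replacement histone and 2 ribosome biogenesis genes were called lower.

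Replication-dependent histones went the other way. Of 65 such genes 33 passed the filter, and 14 were higher in replicate 2 (42.4%, against 3.07% of all genes) and none lower, with a median log2 difference of 1.37. The filter removed the other 32 for low values, so the 33 are not the whole family. It can also admit a gene through replicate 2 alone, which favors higher members. H3C14 and H3C15 entered that way, at 7.66 or less in replicate 1. Without the filter 15 of 61 were called higher and none lower, with a median of 1.04. The pair medians were 1.75 with DMSO, 2.07 with 1 µM DEL-22379, 1.04 with 10 µM DEL-22379 and 1.01 with U0126, and 26 of 33 were higher in all 4 pairs. The ratio of reads in replicate 2 to replicate 1 was 1.32, 1.29, 1.28 and 0.957 in these pairs, and its part was not tested. All 65 genes together took 0.0209, 0.0215, 0.036 and 0.0356% of normalized counts in replicate 2 and 0.00577, 0.00667, 0.0198 and 0.0166% in replicate 1, higher in 4 of 4 pairs. Even in replicate 2 these were small shares, and the libraries were made with a kit that selects poly(A) RNA. How much of the RNA of these genes carried a poly(A) tail was not measured.

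H4C5 encodes histone H4 (ENSG00000276966.2, chr6:26204552-26206038, plus strand) and had 86.8, 68.6, 107 and 197 normalized counts in replicate 2, against 16.1, 14.4, 30.6 and 83.3 in replicate 1 (log2 difference 1.89 ± 0.25 (SE), adjusted p = 0.0119). Its replicate 1 library with U0126 lay within the replicate 2 range, so the sets overlapped, although each pair differed in the same direction. H4C14, another H4 gene, had 195, 384, 769 and 437 normalized counts in replicate 2, against 22.8, 90.8, 322 and 160.3 in replicate 1 (log2 difference 1.95 ± 0.28 (SE), adjusted p = 0.0159). H2BC4 encodes histone H2B and had 68.3, 84.8, 147 and 169.7 normalized counts in replicate 2, against 21.4, 16.6, 44.7 and 74.3 in replicate 1 (log2 difference 1.70 ± 0.24 (SE), adjusted p = 0.0128). H2AC18 encodes histone H2A and had 173, 229, 499 and 145 normalized counts in replicate 2, against 26.8, 29.9, 208 and 51.6 in replicate 1 (log2 difference 2.07 ± 0.30 (SE), adjusted p = 0.0146), but it has a near-identical copy, H2AC19, so its reads are uncertain. H2AC19 itself was at 0 in replicate 1 with DMSO and at 395 in replicate 2, and it did not pass the test (adjusted p = 0.131). H3C14 and H3C15 had the same values in every library and are in effect 1 measurement. The counts of histones tested and called higher above nevertheless include both. With edgeR neither passed (adjusted p = 0.0596 for each). Without the DMSO pair 1 histone gene was called and without the 1 µM DEL-22379 pair 0, while the median stayed at 1.28 and 1.10.

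The promoters of these 4 histone genes are shown to set their letters beside those of the mitotic genes. Capitals mark TATAAA (reverse TTTATA), the TATA box, ATGCAAAT (reverse ATTTGCAT), the octamer bound by OCT1, and CCAAT (reverse ATTGG), in the 200 bases before the RefSeq start (GRCh38.p14). They lie at H4C5 at chr6:26204410-26204609 on the plus strand, H2BC4 at chr6:26123927-26124126 on the minus strand, H2AC18 at chr1:149842751-149842950 on the minus strand and H4C14 at chr1:149832457-149832656 on the plus strand.
H4C5: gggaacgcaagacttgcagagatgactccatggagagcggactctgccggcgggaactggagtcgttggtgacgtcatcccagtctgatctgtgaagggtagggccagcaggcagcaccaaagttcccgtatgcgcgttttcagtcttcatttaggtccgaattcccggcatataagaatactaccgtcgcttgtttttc
H2BC4: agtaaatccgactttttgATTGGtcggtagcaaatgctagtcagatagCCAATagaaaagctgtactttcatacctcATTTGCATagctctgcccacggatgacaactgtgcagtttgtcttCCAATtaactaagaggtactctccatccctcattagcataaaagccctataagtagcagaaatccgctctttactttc
H2AC18: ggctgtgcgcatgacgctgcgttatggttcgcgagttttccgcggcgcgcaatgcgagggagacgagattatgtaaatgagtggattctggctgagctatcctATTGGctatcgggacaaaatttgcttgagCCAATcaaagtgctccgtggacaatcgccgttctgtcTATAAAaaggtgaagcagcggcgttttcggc
H4C14: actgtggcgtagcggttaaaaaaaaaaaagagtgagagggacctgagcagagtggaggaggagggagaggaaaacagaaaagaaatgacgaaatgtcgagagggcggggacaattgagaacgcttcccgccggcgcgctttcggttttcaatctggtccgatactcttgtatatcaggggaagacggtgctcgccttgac

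TATAAA was in 18 of the 32 histone promoters found (56.2%), against 8.92% of all promoters, with 6 of 13 called and 12 of 19 not called. ATGCAAAT was in 13 of 32 (40.6%), against 1.32%, and CCAAT in 26 of 32 (81.2%), against 28.9%. The H4C5 and H4C14 windows held none of the 3 motifs in these exact letters. Both lists, which differed in opposite directions, therefore held CCAAT more often than all promoters did.

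**Figure D2:**
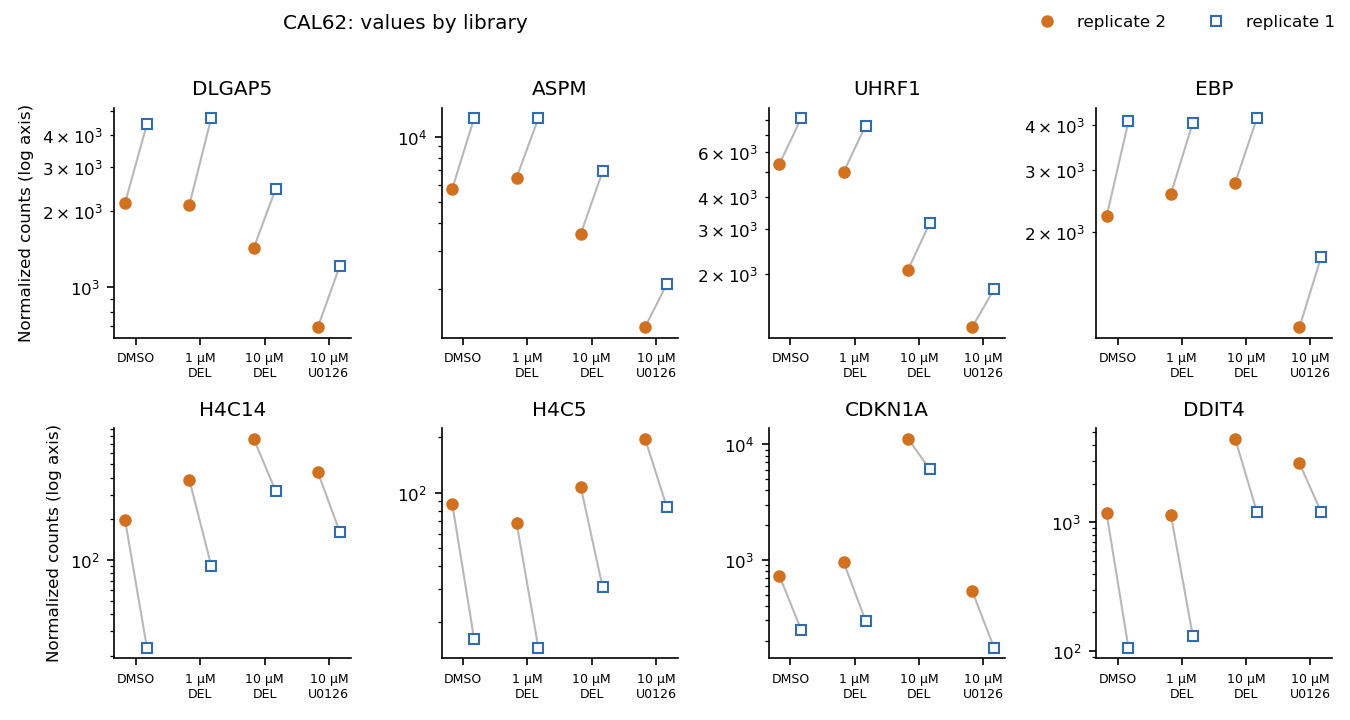
Normalized counts per library (y axis, log scale) of 8 genes under 4 treatments (x axis). Filled circles are replicate 2 and open squares replicate 1, joined within a treatment; there is 1 library per point and no error bar. DLGAP5, ASPM, UHRF1 and EBP lie lower in replicate 2 in all 4 pairs, and H4C14, H4C5, CDKN1A and DDIT4 lie higher.

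Genes of growth arrest and quiescence were higher in part, with 10 of 45 called higher (22.2%), none lower, 35 not called and a median of 0.40. Together the 50 listed genes took 0.327, 0.323, 0.326 and 0.474% of normalized counts in replicate 2, against 0.248, 0.249, 0.295 and 0.49% in replicate 1. This share was higher in 3 of 4 pairs and lower with U0126. CDKN1A, the p21 inhibitor of cyclin-dependent kinases (ENSG00000124762.14, chr6:36676460-36687339, plus strand), had 731, 953, 11186 and 539 normalized counts in replicate 2, against 248, 299, 6087 and 174 in replicate 1 (log2 difference 1.43 ± 0.14 (SE), adjusted p = 0.00756). Replicate 2 was above its partner throughout, and the replicate 1 library with 10 µM DEL-22379 exceeded the other replicate 2 libraries. TXNIP, a thioredoxin inhibitor that restrains glucose uptake, had 884, 851, 153 and 1344 normalized counts in replicate 2, against 298, 381, 90.6 and 714 in replicate 1 (log2 difference 1.10 ± 0.14 (SE), adjusted p = 0.0114). The antiproliferative BTG/TOB genes BTG1 (0.61), TOB1 (0.74) and TOB2 (0.53) were higher. So were TSC22D3 (1.35), which glucocorticoids and FOXO factors induce, and HES1 (0.75), a Notch-responsive repressor. The insulin receptor substrate IRS2 (0.60), ARRDC4 (0.89) and YPEL5 (0.69) complete the set. Of 26 p53-responsive genes 4 were higher (SESN2, CDKN1A, GDF15 and ZMAT3) and 1, the nuclease AEN (-0.47), was lower, with a median of 0.11. These were 15.4% higher and 3.85% lower, against 3.07 and 3.56% of all genes. Without the DMSO pair 1 of the 45 growth arrest genes was called and without the 1 µM DEL-22379 pair 2.

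The integrated stress and unfolded protein response held calls in both directions. Of 40 genes 8 were higher (20%), 4 lower (10%) and 28 not called, and the median was 0.06. The higher genes included factors downstream of ATF4. SESN2, a sestrin that restrains mTORC1 (ENSG00000130766.5, chr1:28259527-28282491, plus strand), had 605, 581, 1940.1 and 654 normalized counts in replicate 2, against 279.7, 281, 886 and 255 in replicate 1 (log2 difference 1.16 ± 0.10 (SE), adjusted p = 0.00756). DDIT3, the transcription factor CHOP, had 889, 906, 3603 and 994 normalized counts in replicate 2, against 452, 389, 2457 and 447 in replicate 1 (log2 difference 0.97 ± 0.12 (SE), adjusted p = 0.0101). CHAC1, which degrades glutathione, had 329, 325, 576 and 331 normalized counts in replicate 2, against 189, 148, 207 and 204 in replicate 1 (log2 difference 1.02 ± 0.16 (SE), adjusted p = 0.0156), and its 4 replicate 2 libraries were all above the 4 replicate 1 libraries. TRIB3 (0.66), a pseudokinase, CEBPB (1.07), a leucine zipper factor, and PPP1R15A (0.48), which recruits a phosphatase to eIF2α, were higher as well. So was NUPR1 (2.87), a small chromatin protein with 5.44 normalized counts or less in replicate 1. NUPR1 passed the filter only through replicate 2, at 13.85 with DMSO and 25.9 with U0126. Its direction therefore follows largely from the filter. DDIT4, an inhibitor of mTORC1 (ENSG00000168209.5, chr10:72273920-72276036, plus strand), had 1171, 1141, 4459 and 2875 normalized counts in replicate 2, against 106, 132, 1197 and 1198 in replicate 1 (log2 difference 2.43 ± 0.40 (SE), adjusted p = 0.0394). The lower genes were the endoplasmic reticulum folding factors SDF2L1 (-0.65), PDIA6 (-0.45) and PDIA4 (-0.46) and the arginine transporter SLC7A1 (-0.46). With equal totals 8 were called higher and 1 lower, and without the DMSO pair 1 gene of the list was called.

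Other stress lists held few calls, beside 3.07% higher and 3.56% lower of all genes tested. Of 25 heat shock genes 3 were higher (12%), HSPB8 (2.61), DNAJB4 (0.58) and HSPA1A (0.95), and none lower. HSPA1A, the inducible HSP70, had 7524, 7393, 40167 and 8006 normalized counts in replicate 2, against 4519, 3987, 12634 and 5705 in replicate 1, and its near-identical copy HSPA1B did not pass the test, so the reads of the pair are uncertain. Of 21 NRF2 antioxidant genes 3 were higher (14.3%) and none lower. HMOX1, heme oxygenase 1, had 669, 547, 1616 and 1285 normalized counts in replicate 2, against 122, 153, 888 and 521 in replicate 1 (log2 difference 1.61 ± 0.24 (SE), adjusted p = 0.0192), and the ferritin light chain FTL differed by 0.43. Of 35 hypoxia and glycolysis genes 2 were higher (5.71%), DDIT4 and the glucose transporter SLC2A3, which had 144, 165, 135 and 175 normalized counts in replicate 2, against 72.3, 55.4, 68.9 and 84.2 in replicate 1 without overlap between the sets. Of 29 lysosome and autophagy genes 4 were higher (13.8%), among them the autophagy receptor SQSTM1 (0.57) and MAP1LC3B (0.45), and 1 was lower (3.45%). Without the DMSO pair 0 genes of these 4 lists were called.

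Cholesterol synthesis and uptake was lower in replicate 2, with 13 of 24 genes called lower (54.2%), none higher and a median of -0.35. The pair medians lay between -0.42 and -0.28. EBP, a sterol isomerase (ENSG00000147155.11, chrX:48521158-48528716, plus strand), had 2216, 2562, 2755 and 1080.0 normalized counts in replicate 2, against 4102, 4062, 4193 and 1708 in replicate 1 (log2 difference -0.70 ± 0.08 (SE), adjusted p = 0.00829). Each replicate 2 library was below its partner, and the replicate 1 library with U0126 lay below 3 of the replicate 2 libraries. SQLE, squalene epoxidase, had 5723, 6401, 12479.7 and 4749 normalized counts in replicate 2, against 8400.4, 8510.3, 17661 and 6731 in replicate 1 (log2 difference -0.49 ± 0.07 (SE), adjusted p = 0.0147). The sterol sensor INSIG1 (-0.64) and the transcription factor SREBF2 (-0.35) were among the others. With equal totals 6 were called lower, and without the DMSO pair 0. Of 78 cytosolic ribosomal protein genes 0 were called by limma (2 at an unadjusted p under 0.05), edgeR or DESeq2, with a pair median of 0.67 with 10 µM DEL-22379 against -0.06 to 0.07 in the other pairs.

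Of 28 genes of ERK output and feedback 4 were higher (14.3%, against 3.07% of all genes) and none lower, all immediate-early AP-1 or EGR factors, and the median was -0.03. JUNB had 1258, 1444, 17001 and 1076 normalized counts in replicate 2, against 612, 814, 6809 and 743 in replicate 1 (log2 difference 0.93 ± 0.12 (SE), adjusted p = 0.0121). FOSB (1.19), FOS (1.33) and EGR3 (2.05) were the others, whereas the DUSP, SPRY and ETV feedback genes of the list were not called. Of 28 YAP and TEAD targets 3 were lower (10.7%, against 3.56% of all genes) and none higher, at a list median of 0.08, namely FJX1 (-0.64), the tissue factor gene F3 (-0.84) and CCN1 (-0.66).

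**Figure D3:**
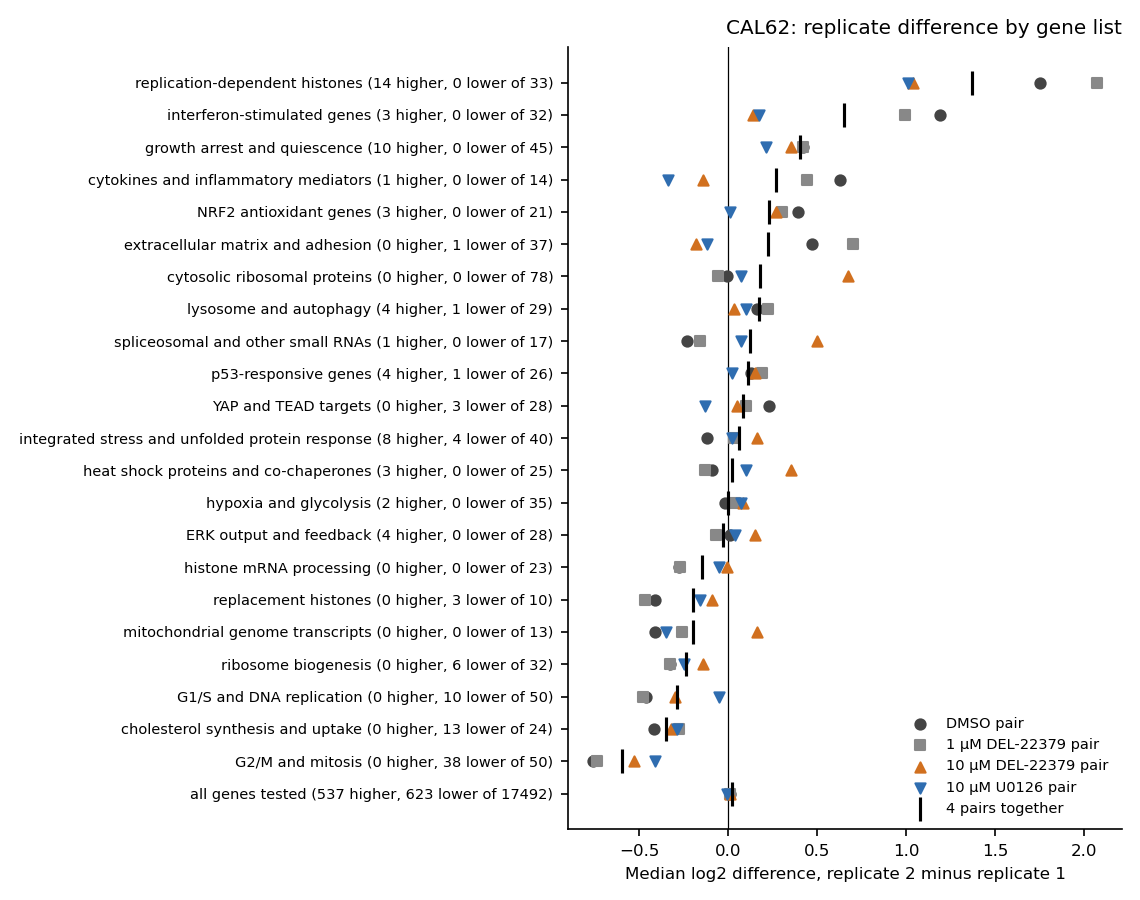
Median log2 difference of replicate 2 minus replicate 1 (x axis) of 22 gene lists and of all genes tested (rows), for each treatment pair (symbols) and the 4 pairs together (vertical bar); row names give the members called higher and lower and the number tested. The histone list lies at 1.01 to 2.07 in the 4 pairs and the mitotic list at -0.76 to -0.41, while interferon, matrix and cytokine lists are above 0 mainly in the DMSO and 1 µM DEL-22379 pairs.

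For some genes the replicate difference depended on the drug. The interaction of replicate with treatment class (10 µM DEL-22379 and U0126 against DMSO and 1 µM DEL-22379) passed in 419 genes (2.4%). The classes were set after earlier results of these data had shown replicate 1 apart mainly with DMSO and 1 µM DEL-22379. The counts therefore describe that pattern and are no separate support for it. The signed difference, replicate 2 minus replicate 1, was smaller with 10 µM DEL-22379 and U0126 in 377 genes (2.16%) and larger in 42 (0.24%). Of the 377, 374 were higher in replicate 2 both with DMSO and with 1 µM DEL-22379, with a median of 1.19 there and -0.07 with 10 µM DEL-22379 and U0126, and 18 also passed the test over all 4 pairs. Of the 42, 39 were lower in replicate 2 both with DMSO and with 1 µM DEL-22379. The 42 had a median of -0.65 there and 0.27 with 10 µM DEL-22379 and U0126. Leaving out 1 pair gave 171 genes (without DMSO) to 2359 genes (without U0126). Without the U0126 pair 1191 were smaller and 1168 larger, so that larger ones made up 49.5% of calls, against 10% with all pairs. Without the 10 µM DEL-22379 pair the count was 974, with 734 smaller and 240 larger. Extracellular matrix held 12 such genes of 37, interferon-stimulated genes 8 of 32, cytokines 5 of 14, growth arrest 5 of 45 and replication-dependent histones 6 of 33. The summed fibroblast markers given above were mostly COL1A1, itself an interaction gene, and so repeat its values. They were higher in replicate 2 with DMSO and 1 µM DEL-22379 alone, and their part was not tested.

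COL1A2, a fibrillar collagen chain, had 840.0, 669, 37.1 and 3645 normalized counts in replicate 2, against 186, 161, 57.4 and 3339 in replicate 1 (interaction -2.35, adjusted p = 0.00334). Replicate 2 exceeded replicate 1 with DMSO and 1 µM DEL-22379 but lay below it with 10 µM DEL-22379. TNC, the matrix glycoprotein tenascin C, had 5512, 8507, 1981 and 723 normalized counts in replicate 2, against 1049, 1437, 2366 and 716 in replicate 1 (interaction -2.60, adjusted p = 0.000427). IGFBP3, which binds insulin-like growth factors (ENSG00000146674.15, chr7:45912245-45921874, minus strand), had 324, 162, 2.06 and 2498 normalized counts in replicate 2, against 13.4, 2.22, 6.38 and 2072 in replicate 1 (interaction -5.58, adjusted p = 0.00326). It was high in both U0126 libraries, low in both 10 µM DEL-22379 libraries, and differed between the replicate numbers with DMSO and 1 µM DEL-22379. CDH6, a classical cadherin, had 60.9, 68.6, 4.13 and 258 normalized counts in replicate 2, against 2.68, 2.22, 3.83 and 285 in replicate 1, and EPPK1, an epiplakin that binds keratins, had 32.3, 42.0, 186 and 59.0 normalized counts in replicate 2, against 1.34, 5.54, 165 and 266 in replicate 1. Among interferon-stimulated genes the median was 1.19 with DMSO and 0.99 with 1 µM DEL-22379, against 0.14 with 10 µM DEL-22379 and 0.17 with U0126. IFIT1, an antiviral RNA-binding protein, had 254, 286, 21.7 and 352 normalized counts in replicate 2, against 97.7, 88.6, 24.2 and 321 in replicate 1. In CXCL8, a neutrophil chemokine, the values were 96.9, 334, 1046 and 25.9 normalized counts in replicate 2, against 14.7, 62.0, 1417 and 19.9 in replicate 1. Of the list 3 interferon genes were called over all 4 pairs, IRF7, ISG15 and OASL.

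**Figure D4:**
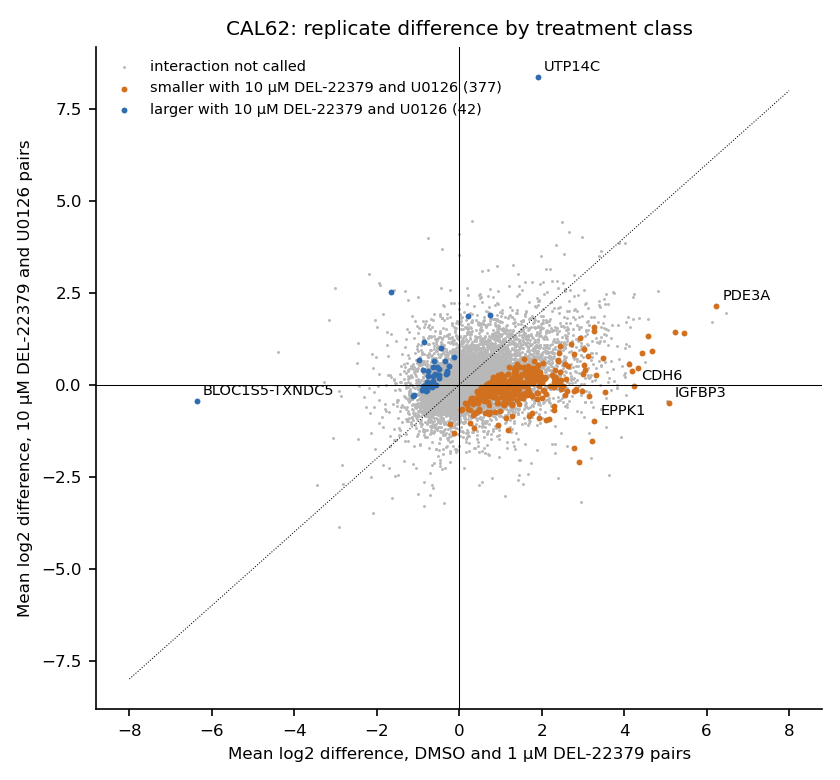
Mean log2 difference of replicate 2 minus replicate 1 in the 10 µM DEL-22379 and U0126 pairs (y axis) against that in the DMSO and 1 µM DEL-22379 pairs (x axis), 1 point per gene; the dotted line marks equal differences. Orange points are the 377 genes with a smaller signed difference under 10 µM DEL-22379 and U0126, with a median of 1.19 on the x axis and -0.07 on the y axis. Blue points are the 42 with a larger signed difference, with a median of -0.65 on the x axis and 0.27 on the y axis.

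The 15 protein-coding genes with the largest positive difference, among called genes with a mean of 50 or more in replicate 2, were PDE3A, ARC, INHBE, SPX, OASL, PLA2G4C, GADD45G, NID2, ZDHHC11B, C1S, C15orf48, DDIT4, DLL1, ID2 and RASD2, at log2 differences of 2.38 to 4.19. In 10 of them replicate 1 averaged below 50 normalized counts. INHBE, the βE subunit of activins, had 86.8, 79.9, 41.3 and 152 normalized counts in replicate 2, against 16.1, 11.1, 1.28 and 19.02 in replicate 1 (log2 difference 3.06 ± 0.35 (SE), adjusted p = 0.00905), without overlap. SPX, a peptide hormone precursor, had 50.8, 54.1, 52.6 and 45.6 normalized counts in replicate 2, against 5.35, 2.22, 11.5 and 5.44 in replicate 1, and NID2, a basement membrane nidogen, had 134, 253, 244 and 558 normalized counts in replicate 2, against 9.37, 25.5, 125 and 105 in replicate 1, both without overlap. ARC, an immediate-early gene best known from neurons, had 794, 977, 50516 and 259 normalized counts in replicate 2, against 48.2, 89.7, 18044 and 20.8 in replicate 1 (log2 difference 3.13 ± 0.44 (SE), adjusted p = 0.0276). PDE3A, a phosphodiesterase of cyclic nucleotides, had 118, 308, 54.7 and 34.8 normalized counts in replicate 2, against 0, 5.54, 7.66 and 10.9 in replicate 1 (log2 difference 4.19 ± 0.89 (SE), adjusted p = 0.0486). The phospholipase PLA2G4C, the stress gene GADD45G, the complement protease C1S and the Notch ligand DLL1 lay between 2.41 and 2.74. ID2, an inhibitor of basic helix-loop-helix factors, had 62.8, 63.0, 3753 and 109 normalized counts in replicate 2, against 5.35, 7.75, 753 and 50.7 in replicate 1 (log2 difference 2.40 ± 0.34 (SE), adjusted p = 0.0147). In all, 7 of the 15 had no overlap between the sets, as did 262 of all genes tested in this direction (1.5%) and 208 in the other (1.19%), but the 15 were chosen by this same contrast.

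The 15 with the largest negative difference were AP000295.1, CLDN11, NMU, FDXACB1, ACTL8, SCHIP1, FSBP, HPDL, DERL3, ALDH1B1, ELOVL2, TMEM200B, DLGAP5, IL12RB2 and GPR3, at -1.89 to -0.91, so their differences were smaller than those of the higher genes, and each had overlapping sets. AP000295.1 is a readthrough of IFNAR2 and IL10RB, and SCHIP1 and FSBP overlap IQCJ-SCHIP1 and RAD54B, so their reads are uncertain. CLDN11, a tight junction claudin (ENSG00000013297.12, chr3:170418865-170454733, plus strand), had 1040.4, 1202, 116 and 554 normalized counts in replicate 2, against 3275, 3399.9, 239 and 1445 in replicate 1 (log2 difference -1.39 ± 0.11 (SE), adjusted p = 0.00756). NMU, the neuropeptide neuromedin U, had 184, 156, 48.5 and 64.3 normalized counts in replicate 2, against 466, 419, 86.8 and 147 in replicate 1 (log2 difference -1.19 ± 0.16 (SE), adjusted p = 0.0121). DERL3, a component of endoplasmic reticulum-associated degradation, had 486, 426, 411 and 71.5 normalized counts in replicate 2, against 1291, 1031, 619 and 111 in replicate 1. The fatty acid elongase ELOVL2 (-0.98), the mitochondrial aldehyde dehydrogenase ALDH1B1 (-0.98), the receptor chain IL12RB2 (-0.93) and the orphan receptor GPR3 (-0.91) were lower in each pair too. Another claudin, CLDN4, went the opposite way, with 859, 747, 1924 and 369 normalized counts in replicate 2, against 304, 197, 824 and 129.5 in replicate 1 (log2 difference 1.53 ± 0.13 (SE), adjusted p = 0.00756).

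The drug effects in CAL62 were then set beside these differences, to describe which lists both touched. Drug and replicate differences use the same 8 libraries, and the drug contrasts share the DMSO libraries, so the values stand side by side without a test of overlap. The numbers were taken to pair the samples, because paired differences correlated at 0.25 or more for each of the 6 pairs of treatments. That is a description, and no label states a pairing. Each count is therefore followed by that of a fit that holds the number as a block. No gene passed for 1 µM DEL-22379 against DMSO with limma, edgeR or the replicate block, at 162 genes with an unadjusted p under 0.05, and DESeq2 called 4. For 10 µM DEL-22379 against DMSO 2248 genes rose (12.9%) and 2248 fell (12.9%), and with the block 3540 rose (20.2%) and 3562 fell (20.4%). Both fits shared 4486 genes of 4496 (25.7%) and 7102 (40.6%). For U0126 against DMSO 1414 rose (8.08%) and 1951 fell (11.2%), and with the block 2980 rose (17%) and 3211 fell (18.4%). Both fits shared 3361 genes of 3365 (19.2%) and 6191 (35.4%).

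The mitotic list fell with U0126 in 48 of 50 genes and in 50 with the block, with a median of -1.98. With 10 µM DEL-22379 7 fell and 1 rose, against 35 and 1 with the block, and the median of -0.62 was close in size to the replicate difference of -0.60. The replicate 1 library with 10 µM DEL-22379 was below the replicate 1 DMSO library in 49 of 50 genes, and replicate 2 with 10 µM DEL-22379 was below replicate 2 DMSO in 43. Over all 17492 genes tested these counts were 8561 and 8858. Across numbers, replicate 1 with 10 µM DEL-22379 was above replicate 2 with DMSO in 26 of the 50, near the share over all genes (8635 of 17492). With U0126 no gene of the list crossed in that way, against 8998 of all 17492. The replicate difference exceeded the 10 µM DEL-22379 difference in size in 23 of 50 genes and the U0126 difference in none, against 4234 and 4415 of all 17492 genes tested. G1/S genes fell in 28 of 50 with 10 µM DEL-22379 and in 37 with the block (median -0.84), and in all 50 with U0126 in both fits (median -2.17).

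Histones had calls under either drug mainly once the number was in the model. With 10 µM DEL-22379 1 of 33 rose without the block and 11 with it (median 1.39), and with U0126 0 rose and 1 fell without the block, against 7 and 1 with it (median 0.98). The replicate difference exceeded the 10 µM DEL-22379 difference in size in 16 of 33 histones and the U0126 difference in 24. The counts over all 17492 genes tested were 4234 and 4415. Growth arrest genes rose in 12 and fell in 4 of 45 with 10 µM DEL-22379 (20 and 5 with the block), and rose in 13 and fell in 4 with U0126 (21 and 7 with the block). Cholesterol genes, which were lower in replicate 2, rose in 18 of 24 with 10 µM DEL-22379 and fell in none (21 and none with the block, median 1.32). With U0126 1 rose and none fell, against 3 and 7 with the block. ERK output genes rose in 17 and fell in 1 of 28 with 10 µM DEL-22379 (19 and 2 with the block) and fell in 20 with U0126 in both fits, next to 4 genes higher in replicate 2. The replicate difference thus stood beside changes in the same direction in some lists and in the opposite direction in others.

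**Figure D5:**
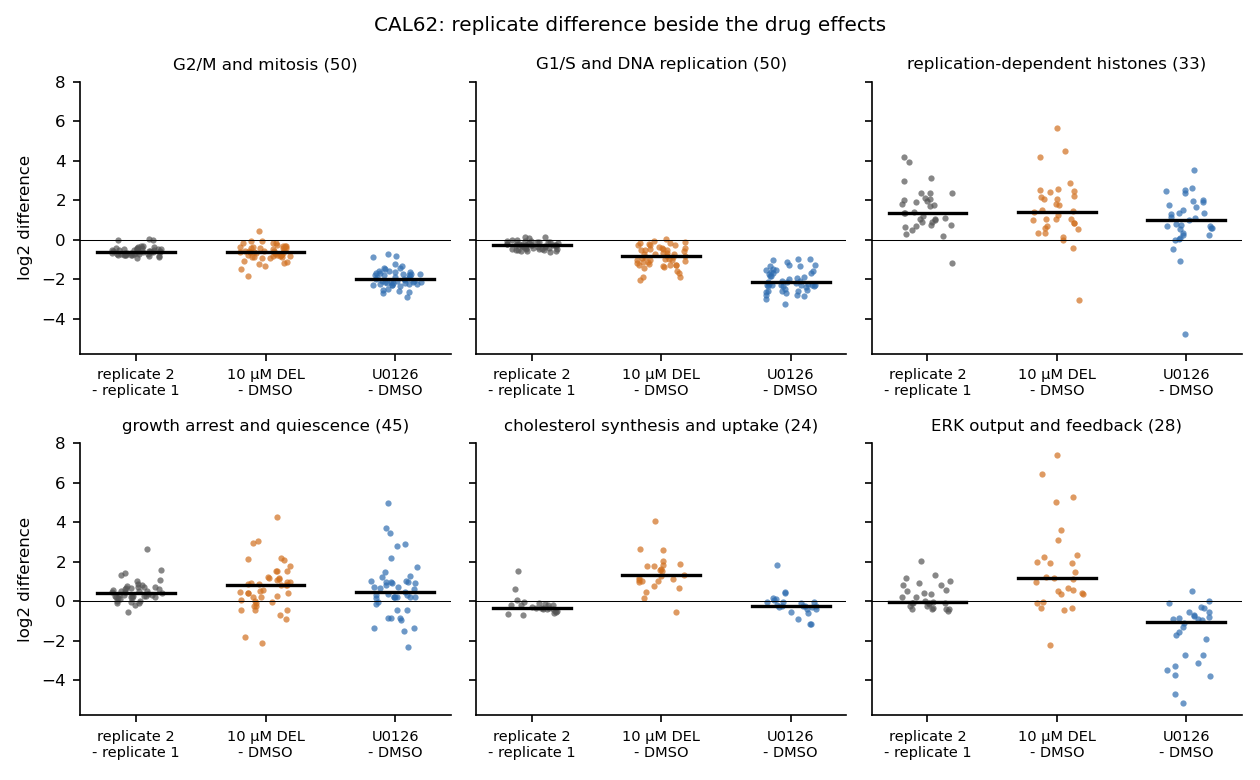
Log2 differences (y axis) of the members of 6 gene lists, 1 point per gene, for replicate 2 minus replicate 1, 10 µM DEL-22379 minus DMSO and U0126 minus DMSO in CAL62 (x axis); black bars are medians and the number tested follows each list name. The mitotic list has medians of -0.60, -0.62 and -1.98 and the cholesterol list -0.35, 1.32 and -0.23.

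Contrasts that share no library were compared next. Genes higher in replicate 2 of both the 1 µM DEL-22379 and the U0126 pair, with a mean log2 difference over 1 and 50 or more normalized counts (299 genes), rose with 10 µM DEL-22379 against DMSO in 13.4% and fell in 2.01%, against 8.91 and 7.69% of all genes, with a median drug difference of 0.94. They made up 2.57% of the genes that rose and 0.446% of those that fell, and 1.71% of all tested. Genes higher in replicate 2 of both DEL-22379 pairs (436) rose with U0126 in 8.72% and fell in 0.688%, against 7.39 and 9.71% of all genes, with a median of 0.99. They made up 2.94% of the genes that rose and 0.177% of those that fell, and 2.49% of all tested. Genes lower in replicate 2 to the same extent were few, 39 for the first comparison, of which 10.3% fell and 2.56% rose, and 41 for the second, of which 17.1% fell and 2.44% rose. These shares were described and not tested.

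The same contrast in 8505c cells gave 1163 called genes of 16936 (6.87%), with 621 higher (3.67%) and 542 lower (3.2%). Nothing in the labels ties number 2 of one line to number 2 of the other. Of the 1160 genes called in CAL62, 1075 were tested in 8505c, and 55 were higher and 78 lower in replicate 2 of both lines, while 17 and 4 were called in opposite directions. Of the 50 mitotic genes 0 were called in 8505c by limma (10 at an unadjusted p under 0.05) or edgeR and 2 by DESeq2 (median -0.05), and the difference between the lines was itself called, lower in CAL62, in 27 of 50. Over all genes that test passed in 656 of 15420 (4.25%), with 299 higher (1.94%) and 357 lower (2.32%) in CAL62. Equal totals raised the higher share of these calls to 61.8%, against 45.6% as deposited. For G1/S genes 7 were higher and none lower in 8505c, and 13 of 50 passed the test between the lines. Of the histones 5 were higher and none lower in 8505c (median 0.25), and 3 passed the test between the lines. Of 45 growth arrest genes 6 were higher in 8505c, CDKN1A among them (0.39 in 8505c), and 6 passed the test between the lines, all higher in CAL62. Of 13 transcripts of the mitochondrial genome 12 were lower in replicate 2 of 8505c, against 0 called in CAL62 by limma (4 at an unadjusted p under 0.05) or edgeR and 5 by DESeq2, where the median was -0.20 and they took 6.26, 6.1, 5.47 and 7.22% of normalized counts in replicate 2, against 7.53, 6.82, 6.08 and 8.67% in replicate 1. None of the 13 passed the test between the lines. Leaving out 1 pair of either line moved the count of 656 to between 108 (without the 8505c DMSO pair) and 1476 (without the CAL62 10 µM DEL-22379 pair).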

How the data were processed

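RNA from 8505c and CAL62 cells was sequenced by the study's authors (TruSeq Stranded mRNA, NovaSeq, paired reads of 51 bases). The table that the authors deposited holds read counts per gene divided by a size factor per library, rounded to 2 decimals, so its values have no fixed unit and are a signal called normalized counts here. The submitters' processing notes name GRCh38; no source used here names the aligner, counter or annotation version. Every value under 200 was a whole number of reads, within 0.02 reads, at one step per library, and the reads recovered this way gave the depths above and the input for edgeR 4.0.16 and DESeq2 1.42.0, which were run as alternatives. For replicate 1 of 8505c with 1 µM DEL-22379 this check was uninformative, as its step nearly equals 1.

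Genes with 10 or more in 2 or more CAL62 libraries were compared as log2(value + 1) with limma 3.58.1 (R 4.3.3; trend, robust), replicate 2 against replicate 1 with treatment in the model, Benjamini-Hochberg adjusted over all genes tested, called at an adjusted p under 0.05. A fold on this scale understates changes of low genes. The fit had 3 residual degrees of freedom. Fits of the same kind gave the interaction, the 8505c and the between-line tests; drug contrasts were fitted without and with the replicate number as a block, and the numbers were taken to pair the samples because paired differences correlated at 0.25 to 0.55 in CAL62 and 0.10 to 0.17 in 8505c. The exact test planned for summed shares of lists is not reported, because the members were chosen with results known. Sequences are from RefSeq (GRCh38.p14, 200 bases before 27305 starts), and gene positions from GENCODE for GRCh38, matched by gene identifier. The fits were tested on simulated data. Members, gene lists and the treatment classes of the interaction were chosen with earlier results of these data known. Named genes were the 15 protein-coding genes with the largest difference in each direction among those called, with one direction in all pairs and a mean of 50 or more in the higher set, the 4 smallest p-values within every list, and the 6 largest interactions under the same floor; other genes named were chosen after their values were seen. Some members of the lists are counted but not reported by name here.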

Additional observations from a re-analysis of the deposited data

Results flagged for a closer look

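The replicate difference in CAL62 depended on treatment class in 419 genes and on the cell line in 656 genes, both by a test of the interaction itself (limma, adjusted p under 0.05). The treatment classes were set with earlier results of these data known. Smaller and larger below refer to the signed difference, replicate 2 minus replicate 1. Single genes for which the difference between replicate 2 and replicate 1 was smaller with 10 µM DEL-22379 and U0126 than with DMSO and 1 µM DEL-22379 were IGFBP3 (log2 interaction -5.58), the cadherin CDH6 (-4.28), the keratin-binding EPPK1 (-4.27), the phosphodiesterase PDE3A (-4.09), the chemokine CXCL8 (-2.56), the matrix genes COL1A2 (-2.35), TGFBI (-2.33) and COL1A1 (-2.12), the cytokine IL11 (-1.93), the mTORC1 inhibitor DDIT4 (-1.70) and the stress-induced NDRG1 (-1.16). It was larger there for the AP-1 gene FOS (1.14), which had 104625 normalized counts with 10 µM DEL-22379 in replicate 2 and 25799 in replicate 1.

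Both remaining genes overlap others, so their reads are uncertain. UTP14C (6.47), which overlaps ALG11, had 12.9, 0, 441 and 246 normalized counts in replicate 2, against 0, 0, 0 and 0 in replicate 1. Its fitted value depends on the pseudocount and is no bound, because all replicate 1 libraries were at 0. BLOC1S5-TXNDC5 (5.94), a readthrough of BLOC1S5 and TXNDC5, had 0, 0, 98.0 and 65.2 normalized counts in replicate 2, against 221, 29.9, 116 and 101 in replicate 1. What moves these genes with the treatment was not tested. Groups of 2 are too small for a check of outlying samples.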

How the results depend on the processing

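Of 1160 genes called between replicate 2 and replicate 1, 1061 were also called by edgeR and 1111 by DESeq2. Equal totals gave 732 calls, DESeq2 2241, 1 model of all 16 libraries 3257, the thresholds of the study 4, and a fit without treatment 0 (limma, 546 genes at an unadjusted p under 0.05). Leaving out 1 pair gave 26 to 1611. The interaction with treatment class (419) gave 707 without the filter and 171 to 2359 without 1 pair. The 8505c difference (1163) gave 0 without treatment in the model (544 at an unadjusted p under 0.05) and 345 to 1328 without 1 pair. The difference between the lines (656) gave 372 without the filter, 1169 with DESeq2 and 108 to 1476 without 1 pair.

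For 1 µM DEL-22379 against DMSO the count of 0 became 1 without the filter, 4 with DESeq2 and 0 to 1 without 1 library. With the replicate number as a block, which takes the numbers to pair the samples, 10 µM DEL-22379 gave 7102 calls instead of 4496 and U0126 6191 instead of 3365. The block fit called 0 genes for 1 µM DEL-22379. Leaving out 1 library gave 1663 (without 10 µM DEL-22379 replicate 2) to 4355 calls for 10 µM DEL-22379, with 1682 without DMSO replicate 1, and 616 (without U0126 replicate 2) to 4064 for U0126, with 689 without DMSO replicate 1 and 691 without U0126 replicate 1. In these fits the lone sample was assumed to vary like the other groups. The causes were not tested, beyond the smaller number of libraries. No named gene called between replicate 2 and replicate 1 changed sign under these settings. With equal totals the calls between replicate 2 and replicate 1 turned to 475 higher and 257 lower, against 537 and 623, and those of the line difference to 285 and 176, against 299 and 357. List medians near 0 changed sign in places. Without the 10 µM DEL-22379 pair the stress response list was at -0.03 (0.06 with all pairs), heat shock at -0.03 (0.02) and small RNAs at -0.09 (0.12), and ERK output was at 0.03 with equal totals and 0.04 without the U0126 pair (-0.03). Of 138 genes named, 89 lost the call without treatment in the model, 80 without the DMSO pair and 71 without the 1 µM DEL-22379 pair, against 0 to 22 under each other setting. List counts under other settings were added after seeing the data. Depth limits genes with few reads, where 1 read is worth 0.8075 to 1.3383 normalized counts.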

Other observations

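Genes that respond to BMP and TGF-beta signaling are named here after their values were seen. The inhibitors of DNA binding ID1 (0.99), ID2 (2.40) and ID3 (0.81), the inhibitory SMADs SMAD6 (2.01) and SMAD7 (0.84), SMAD9 (1.56), the pseudoreceptor BAMBI (3.36) and the transcription factor ATOH8 (2.79) were above their partner in all 4 pairs. So were 17.6% of all genes tested. ATOH8 did not pass with limma (adjusted p = 0.0751). With edgeR SMAD6 (adjusted p = 0.05935), SMAD7 (0.0548) and ATOH8 (0.219) did not pass. ID1 had 5271, 6939, 1506 and 7065 normalized counts in replicate 2, against 1887, 2753, 867 and 5488 in replicate 1. SMAD6 had 135, 154, 76.4 and 601 normalized counts in replicate 2, against 13.4, 21.1, 31.9 and 361 in replicate 1, with the widest ratios under DMSO and 1 µM DEL-22379. BAMBI was at 0 in replicate 1 with DMSO and with 1 µM DEL-22379, where replicate 2 had 13.8 and 23.4 normalized counts.

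Nuclear long noncoding RNAs are given here as values. NEAT1, the scaffold of paraspeckles, had 78228, 78091, 96234 and 174422 normalized counts in replicate 2, against 33188, 31076, 80744 and 128627 in replicate 1, and MALAT1, which sits in nuclear speckles, had 11088, 9993, 9716 and 28343 normalized counts in replicate 2, against 4118, 4225, 12487 and 21591 in replicate 1. Neither passed with limma (adjusted p = 0.0504 for NEAT1 and 0.228 for MALAT1) or edgeR, DESeq2 called NEAT1 (adjusted p = 0.000271), and MALAT1 was lower in replicate 2 with 10 µM DEL-22379. Of 2457 long noncoding RNAs tested 47 were higher (1.91%) and 14 lower (0.57%), smaller shares than the 3.07 and 3.56% of all genes. Single-exon genes made up 5.74% of the protein-coding genes that were higher (3.51% without the listed histones), against 2.02% of those that were lower and 2.2% of those not called.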
